A study of Mus musculus with 4 samples.

Results

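The subunits of AMPA and kainate receptors, ionotropic glutamate receptors of fast synaptic signalling, are encoded by 9 genes, and all 9 were measured here among the 56980 genes of each library. The set holds Gria1, Gria2, Gria3 and Gria4 (AMPA) and Grik1, Grik2, Grik3, Grik4 and Grik5 (kainate), taken by gene symbol. It was chosen after the UMI counts of TKO and Ctrl cells were known, and because Gria3 and Grik4 moved in opposite directions. The TKO against Ctrl values of these 9 genes are therefore given as a description, with no p-value. Whether the fit across all genes called a member is stated as part of that description and supports nothing.

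An AMPA or kainate receptor is a channel of several subunits that opens when glutamate binds and lets cations into the cell. Gria2 controls how much calcium an AMPA receptor passes, Grik1 to Grik3 can form kainate channels by themselves, and Grik4 and Grik5 act as partner subunits. These receptors are best known from neurons.

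The libraries were made from dorsal skin of mouse embryos, E16.5 per the labels (a litter list of the study gives an earlier day for the single-cell litter), after sorting of cells positive for Epcam and α6 integrin. There were 2 Ctrl and 2 TKO libraries, each from 1 embryo. Ctrl embryos carried floxed Suv39h1 and Setdb1 (Suv39h1 f/f, Setdb1 f/f), a constitutive Suv39h2-/- deletion and no Cre (K14CreERT2-), and TKO embryos carried the same alleles with K14CreERT2+. Tamoxifen was given to both groups, and both groups carry the Suv39h2 deletion by genotype. The 3 targeted genes encode methyltransferases for H3K9me3, a histone modification found on silent chromatin. K14CreERT2 is driven by a keratin 14 promoter, which is active in keratinocytes, and the study describes the loss of the mark as mosaic. Values are UMIs (unique molecular identifiers, 1 per captured transcript) and CPM (UMIs per 1000000 UMIs of the same cells and library).

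After filtering, the libraries held 2842 and 2988 keratinocytes in Ctrl and 1564 and 1791 in TKO, with median depths of 21963 and 17325.5 against 30072.5 and 28052 UMIs per cell. TKO cells were deeper, so shares of cells are given after every cell was thinned to 5000 UMIs. Keratinocytes fell into basal-like, differentiating-like and hair follicle-like classes, named from markers. Pairs of libraries shared between 2 and 12 cell barcodes. All 4 libraries had Y-linked transcripts (Eif2s3y at 104, 103, 110 and 105 CPM) and nearly no Xist (0.0733 to 0.14 CPM), so these markers of sex did not separate the groups, which bears on the X-linked Gria3. The study describes male and female samples in each group, which these values do not show. Of the targeted genes, Suv39h1 was at 24.4 and 25.3 CPM in Ctrl keratinocytes and 24.9 and 20 in TKO, Suv39h2 at 14 and 17.1 against 22.6 and 16, and Setdb1 at 67.9 and 58.2 against 39.5 and 42.5. These counts do not tell which exons were deleted. Whether reads in introns were counted is not given in the sources used here, so a UMI of these genes may come from spliced or unspliced RNA.

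Sequences near the transcription start are shown for Grik4, which was lower in TKO keratinocytes, and for Gria4, which was higher in TKO basal-like cells. They are also shown for Gria2, which was measured in basal-like cells of both groups at overlapping levels. RefSeq (GRCm38.p6) held windows for 6 of the 9 genes, with Gria1, Gria3 and Grik1 not among them. Each window runs from 250 bases before to 50 bases after the start, 5′ to 3′ on the gene's strand, and capitals mark GC boxes (GGGCGG, searched on both strands).

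Grik4, chr9:42944322-42944621, minus strand: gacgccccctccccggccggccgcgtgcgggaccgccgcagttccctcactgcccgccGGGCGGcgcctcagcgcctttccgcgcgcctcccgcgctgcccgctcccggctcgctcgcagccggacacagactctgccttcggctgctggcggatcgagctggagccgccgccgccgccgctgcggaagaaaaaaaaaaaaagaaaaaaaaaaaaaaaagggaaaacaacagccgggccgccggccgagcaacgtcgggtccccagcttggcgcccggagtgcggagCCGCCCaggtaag
Gria4, chr9:4796185-4796484, minus strand: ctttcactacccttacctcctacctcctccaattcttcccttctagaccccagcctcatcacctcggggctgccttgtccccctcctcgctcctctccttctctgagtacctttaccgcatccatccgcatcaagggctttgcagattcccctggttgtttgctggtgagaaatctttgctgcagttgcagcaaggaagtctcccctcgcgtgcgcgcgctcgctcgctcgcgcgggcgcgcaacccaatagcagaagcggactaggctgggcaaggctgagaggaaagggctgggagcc
Gria2, chr3:80802786-80803085, minus strand: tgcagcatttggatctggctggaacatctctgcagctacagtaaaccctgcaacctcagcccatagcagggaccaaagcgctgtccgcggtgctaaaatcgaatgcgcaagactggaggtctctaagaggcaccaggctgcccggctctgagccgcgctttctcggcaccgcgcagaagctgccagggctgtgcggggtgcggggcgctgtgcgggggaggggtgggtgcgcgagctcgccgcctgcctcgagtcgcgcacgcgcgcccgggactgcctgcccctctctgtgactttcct

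The Grik4 window held 42 CpG dinucleotides, more than 97% of the 32851 promoter windows of the same length, and 2 GC boxes. The Gria4 window held 17 CpG and the Gria2 window 26, where the median window held 7, and neither had a GC box. At least 1 GC box was in 35.7% of all windows. The letters TATAAA, on either strand, were in none of the 6 member windows and in 13.6% of all windows. The other 3 windows, of Grik2, Grik3 and Grik5, held 26, 50 and 10 CpG. Grik3 had the most GC boxes of the 6, with 7.

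Among AMPA genes, Gria3 (GRCm39 chromosome X, 40489476 to 40767490, plus strand) was low in Ctrl keratinocytes and high in TKO keratinocytes. In basal-like cells it held 72 and 25 UMIs per Ctrl library (2.12 and 0.793 CPM) and 2167 and 1288 UMIs in TKO (66.0 and 44.8 CPM). Both TKO libraries lay far above both Ctrl libraries, and TKO replicate 1 was the higher of the pair. The log2 change was 5.23 (SE 0.398). Of the 72 UMIs in Ctrl replicate 1, 23 came from 1 cell. Hair follicle-like cells had 46 and 41 Gria3 UMIs in Ctrl (3.22 and 2.80 CPM) and 593 and 343 per TKO library (62.4 and 29.8 CPM), a log2 change of 3.97 (SE 0.366). Here too the groups did not overlap.

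Differentiating-like cells had the fewest Gria3 transcripts in Ctrl, with 0 and 2 UMIs, against 346 and 255 in TKO (45.7 and 20.4 CPM). The ratio of the group levels was 447 (exact 95% interval 123 to 3698, counting error only), an interval that is wide because it rests on 2 UMIs. Over all keratinocytes Gria3 had 118 and 70 UMIs in the Ctrl pair and 3855 and 2501 in the TKO pair, a log2 change of 5.31 (SE 0.304). Leaving out each library in turn moved this change between 4.97 and 5.61. TKO replicate 1 exceeded TKO replicate 2 in all 3 classes.

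**Figure D1:**
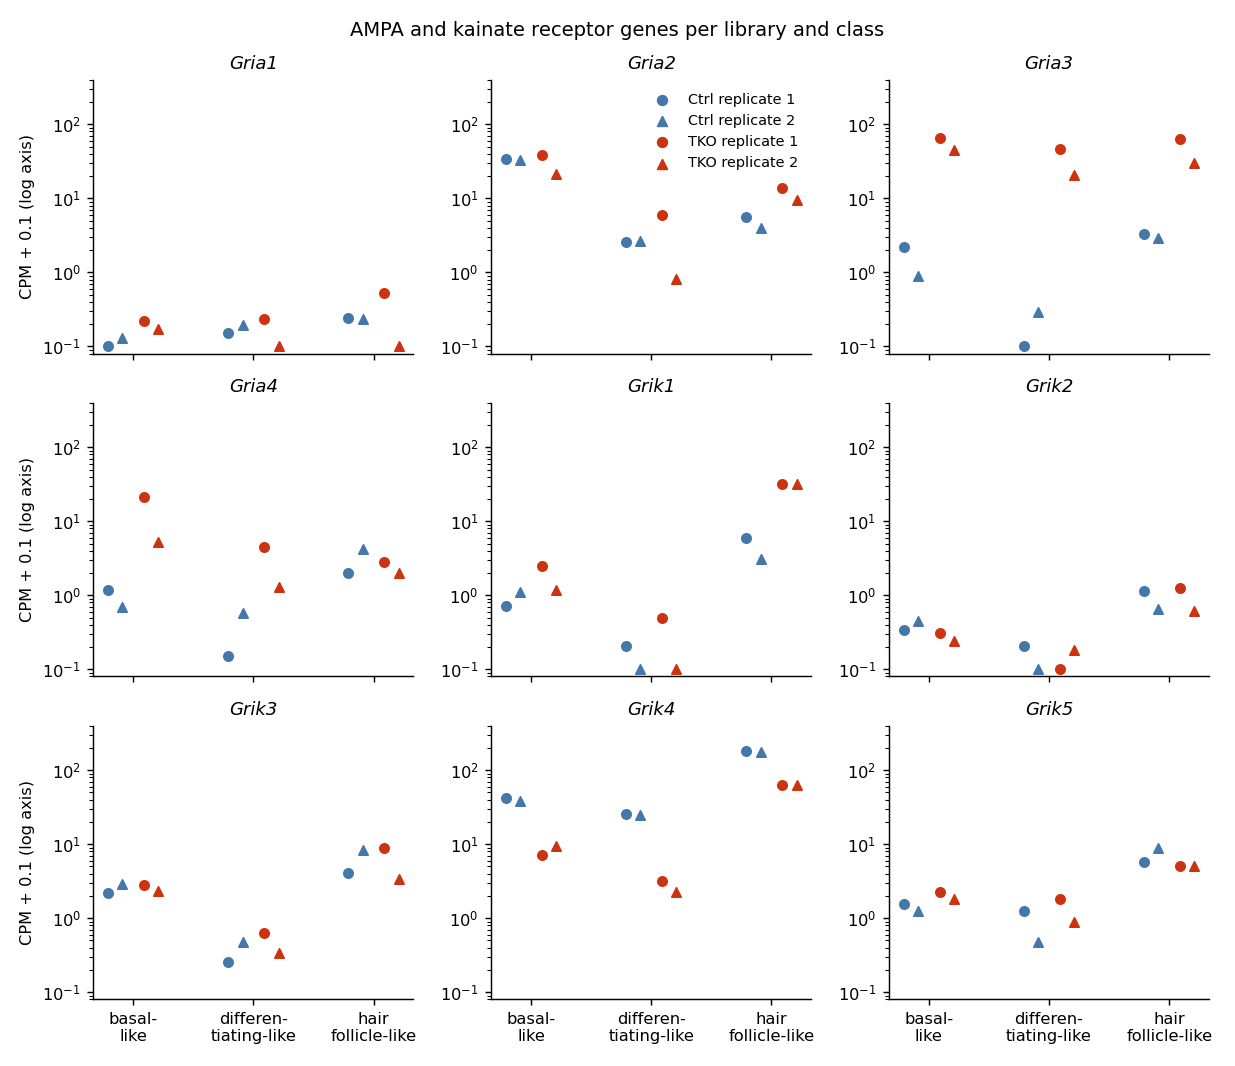
CPM plus 0.1 (log axis) of the 9 receptor genes in each library and keratinocyte class, with Ctrl in blue and TKO in red and 1 point per library. Gria3 lies at 20.4 CPM or more in every TKO sum and at 3.22 CPM or less in every Ctrl sum, while Grik4 lies lower in both TKO libraries than in both Ctrl libraries in each class.

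Gria3 transcripts were spread unevenly over TKO cells. In cells thinned to 5000 UMIs, 10 of 1519 (0.658%) and 5 of 1686 (0.297%) basal-like Ctrl cells had a Gria3 UMI, against 197 of 1002 (19.7%) and 133 of 966 (13.8%) in TKO. Immune-like cells of the TKO libraries, which should lack the gene, gave 1 of 243 (0.412%) and 0 of 274, the latter allowing up to 1.09%. The TKO shares were far above this background of their own libraries. Ctrl immune-like cells gave 0 of 64 and 0 of 96, which allows up to 4.69% and 3.12%, so they set no narrow background for the Ctrl shares. In Ctrl, 5 and 2 basal-like cells had 3 or more Gria3 UMIs without thinning. Median depths before thinning were 29861.5 and 27934 UMIs in basal-like TKO cells and 18240 and 17884.5 UMIs in the immune-like TKO cells. Without thinning, 661 of 1006 and 751 of 967 basal-like TKO cells had no Gria3 UMI, 222 and 144 had 3 or more, and the highest cells had 46 and 31. Most TKO cells therefore gave no Gria3 transcript at this depth, while others gave many.

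Differentiating-like cells had a Gria3 UMI in 35 of 202 (17.3%) and 31 of 362 (8.56%) TKO cells at that depth and in 0 of 675 and 0 of 447 Ctrl cells, which allows up to 0.444% and 0.671%. In hair follicle-like cells the shares were 22.5% and 10.2% in TKO and 1.18% and 0.887% in Ctrl. In each of the 3 classes the exact 95% intervals of TKO and Ctrl libraries did not overlap. These intervals cover counting error only.

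Gria3 was also present in fibroblast-like cells of both groups, a dermal cell type in which the keratin 14 promoter is not known to be active. Fibroblast-like cells held 116 and 114 UMIs per Ctrl library (70.8 and 77.7 CPM) and 329 and 175 per TKO library (88.1 and 83.0 CPM). Both TKO libraries lay above both Ctrl libraries, while the exact Poisson intervals of all 4 overlapped, between 58.5 and 98.1 CPM. At 5000 UMIs the shares of cells with a Gria3 UMI were 30.6% and 26.4% in TKO and 16.3% and 22.3% in Ctrl. These values were apart, but the exact intervals overlapped (18.9 to 35 in TKO replicate 2, 14.7 to 31.6 in Ctrl replicate 2). At 10000 UMIs the groups overlapped, at 41.5% and 32.4% in TKO and 27.5% and 33.7% in Ctrl. The fibroblast-like level was above every class of Ctrl keratinocytes, and the basal-like and hair follicle-like TKO libraries reached 44.8 to 66.0 and 29.8 to 62.4 CPM. Immune-like cells had 0 and 1 Gria3 UMIs in the Ctrl pair and 7 and 4 in the TKO pair, at most 1.40 CPM. In Ctrl, Gria3 was thus ordered from fibroblast-like over hair follicle-like and basal-like to differentiating-like cells, where the intervals of hair follicle-like and basal-like cells were apart in Ctrl replicate 2 (lower bound 2.01 against upper bound 1.17 CPM) and overlapped in Ctrl replicate 1, in which 1 basal-like cell gave 23 of the 72 UMIs. In TKO the ranges of the 3 keratinocyte classes overlapped.

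A small cluster with melanocyte markers, which also held muscle and keratinocyte markers, had 0 and 0 Gria3 UMIs in 7 and 6 Ctrl cells (upper limits of the exact interval 16 and 44.8 CPM) and 89 and 89 UMIs in 43 and 27 TKO cells (71.7 and 116 CPM). In the same cluster Grik4 had 17 and 6 UMIs in Ctrl (73.7 and 72.8 CPM) and 3 and 1 in TKO (2.42 and 1.30 CPM). Both genes thus differed in the direction seen in keratinocytes, on few Ctrl cells. Over all non-epithelial cells, whose makeup differed between libraries, Gria3 was at 31.7 and 29.7 CPM in Ctrl and 47.7 and 21 CPM in TKO, which overlapped. Grik4 was at 9.12 and 3.10 CPM in Ctrl and 1.78 and 0.854 CPM in TKO, with both TKO libraries lower. Immune-like cells of Ctrl replicate 1 had 14 Grik4 UMIs (11.5 CPM). The part of cell makeup in these values was not tested.

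**Figure D2:**
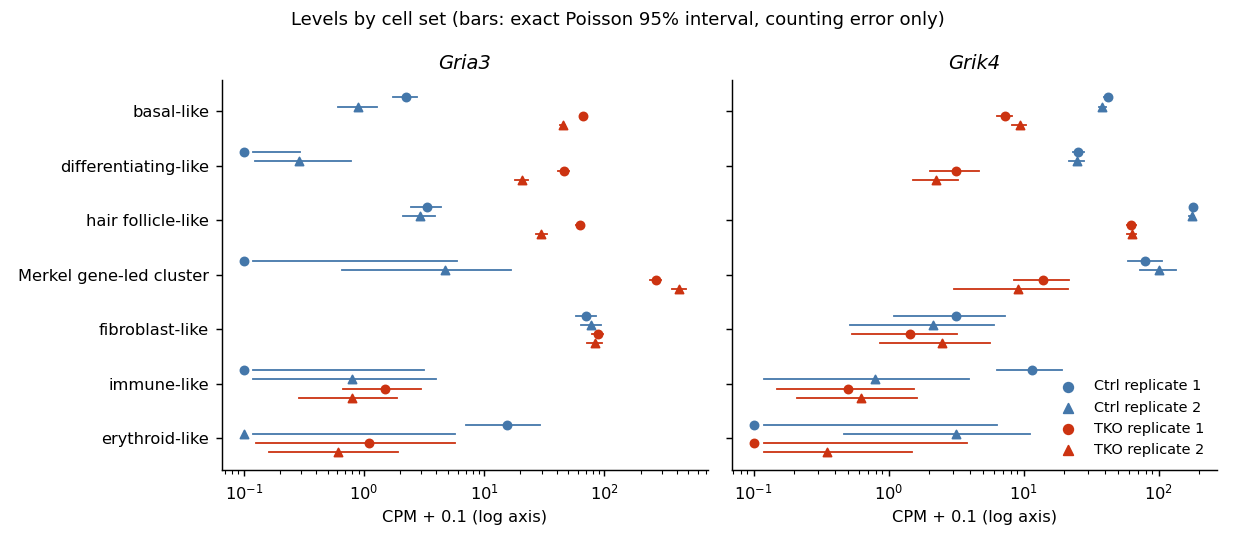
CPM plus 0.1 (log axis) of Gria3 and Grik4 in each cell set, with 1 point per library and bars for the exact Poisson 95% interval. Gria3 lies between 70.8 and 88.1 CPM in fibroblast-like cells of all 4 libraries, and Grik4 is at most 3.05 CPM there.

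A cluster led by Merkel cell genes (Ccer2, Nrxn3, Krt8, Pou4f3 and Isl1) joined cells of unlike kinds. Its 34 and 26 Ctrl cells had 4729 and 4926 CPM summed over 8 Merkel markers, and its 34 and 19 TKO cells had 43.25 and 148.6 CPM, with Atoh1, Isl1, Insm1 and Pou4f3 at 0 in both TKO libraries. The TKO cells in it are therefore not called Merkel cells here. They had 366 and 230 Gria3 UMIs (268.3 and 416.9 CPM), against 0 and 2 in the Ctrl cells. A further cluster led by Psca, Mal, Krt4, Upk1b and Krt19, of which 33 and 28 of 64 cells came from TKO, had 367.2 and 459.7 CPM of Gria3. With only 1 and 2 Ctrl cells in it, there is no Ctrl level to set beside these values. In the hair follicle-like cluster led by Zfpm2, Pthlh and Penk, Gria3 had 0 UMIs in 101 and 150 Ctrl cells and 105 and 66 UMIs in 22 and 28 TKO cells (174.0 and 129.1 CPM). The contrast was smaller in the cluster led by Tll1, Abi3bp and Shh, which gave 22 of the 46 and 28 of the 41 Ctrl hair follicle-like UMIs. Gria3 was there at 7.33 and 8.69 CPM in Ctrl and 66.2 and 24.5 CPM in TKO. In the cluster with the same leading genes without alignment it was at 9.20 and 11.6 CPM against 75.7 and 20.6 CPM. In that led by Zfpm2 and Pthlh without alignment, Gria3 had 0 UMIs in both Ctrl libraries. The 5 and 12 TKO cells there had 3 and 14 UMIs (37.37 and 77.91 CPM).

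When the principal components were not aligned between libraries, 99.8% of the 984 cells in 1 keratinocyte cluster were from TKO. Its leading genes were Tagln and Acta2, which encode contractile proteins of smooth muscle, then Bex1 and Myh15, and Gria3 was the seventh, so it is called here by Tagln. All 8 basal markers were detected in it, with Krt5 at 3478 and 3308 CPM and Krt14 at 5971 and 5953 CPM in the TKO libraries, and 6 skeletal muscle markers summed to 1.82 and 1.528 CPM. With aligned components, 620 of its 772 cells in TKO replicate 1 and 139 of 210 in TKO replicate 2 were basal-like, and the others lay in hair follicle-like cells, the cluster led by Merkel genes and the Psca-led cluster. The 32 and 18 cells in the cluster led by Merkel genes were most of its 34 and 19 TKO cells. Likewise, the 30 and 26 in the Psca-led cluster were most of its 33 and 28. The TKO values of these clusters thus rest largely on the same cells. None of the 9 genes was used for the clustering. In the Tagln-led cluster Gria3 reached 106.8 and 177.1 CPM in the TKO libraries, and in the other basal-like TKO cells it was 33.83 and 31.39 CPM. The Tagln-led cluster took 772 cells from TKO replicate 1 and 210 from TKO replicate 2. Pooled over the other basal-like clusters, the 2 TKO libraries were nearly level in Gria3, but single clusters were apart in both directions. In the basal-like cluster led by Nusap1, Gria3 was at 4.016 and 19.58 CPM in TKO replicates 1 and 2. In that led by Notch1 it was at 170.3 and 89.99 CPM.

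Differentiating-like cells divided likewise without alignment. A cluster of 359 cells was 98.61% TKO, with Gria3 at 63.3 and 26.4 CPM and Grik4 at 2.42 and 1.92 CPM in its TKO cells. A pair of clusters that held most Ctrl cells were 6.94% and 7.26% TKO, and their few TKO cells had 0 and 1 Gria3 UMIs in the former and 11 and 1 in the latter. The differentiating-like values of Gria3 and Grik4 therefore compare cells that mostly lay in different clusters when libraries were not aligned. In the cluster led by Mgst1 and Rbp7, which was 49.57% TKO, Gria3 was at 0 and 1.33 CPM in Ctrl and 29.8 and 14.5 CPM in TKO, and Grik4 at 23.95 and 21.9 against 6.88 and 0.805 CPM.

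Gria4 (chromosome 9, 4417604 to 4796326, minus strand) also stood higher in TKO basal-like cells, with 37 and 19 UMIs in Ctrl (1.09 and 0.602 CPM) and 697 and 150 per TKO library (21.2 and 5.21 CPM). TKO replicate 1 stood well above TKO replicate 2, and both lay above Ctrl. Without alignment most of the Gria4 UMIs lay in the Tagln-led cluster of almost only TKO cells, which had 837 and 189 Gria4 UMIs in 772 and 210 cells (31.74 and 28.88 CPM). The other basal-like TKO cells of that clustering had 141 and 62 UMIs in 409 and 788 cells (10.96 and 2.623 CPM). The TKO libraries were thus close within the cluster and apart outside it, and they differed in how many cells it took from each. The log2 change of 3.94 (SE 0.708) moved to 2.65 when TKO replicate 1 was left out and to 4.62 when its partner was, and it was no longer called without either Ctrl library. Hair follicle-like cells had 1.89 and 4.17 CPM in Ctrl and 2.74 and 1.91 CPM in TKO, which overlapped. In Ctrl the gene was higher in the cluster led by Merkel genes, with 67 and 62 UMIs (107 and 142 CPM), and in fibroblast-like cells (50.6 and 40.2 CPM). The TKO cells of the former cluster had 14.7 and 10.9 CPM. In the Psca-led cluster, most of whose TKO cells lay in the Tagln-led cluster without alignment, the TKO cells had 223 and 92 UMIs.

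A Gria4 UMI was found in a larger share of TKO keratinocytes with a Gria3 UMI than of those without. At 5000 UMIs, Gria4 had a UMI in 43 of 343 (12.5%, lower bound of the exact interval 9.22) keratinocytes with a Gria3 UMI and in 50 of 1217 (4.11%, 3.06 to 5.38) without one in TKO replicate 1. In TKO replicate 2 it was 15 of 236 (6.36%, 3.60 to 10.3) against 17 of 1548 (1.10%, 0.641 to 1.75). The intervals were apart in both libraries. Within basal-like cells the shares were 13.7% against 5.71% and 6.77% against 1.08%. In hair follicle-like cells they were 3 of 65 against 1 of 224 and 0 of 42 against 5 of 369, too few to read. Gria2 ran the other way in TKO replicate 1, where 8.63% (5.11 to 13.5) of basal-like cells with a Gria3 UMI and 16.4% (13.9 to 19.1) of those without had a Gria2 UMI. Over keratinocytes of that library the shares were 6.71% (4.30 to 9.89) against 11.8% (10.1 to 13.8), again with intervals apart. At 10000 UMIs the intervals overlapped in both cell sets, and in TKO replicate 2 the Gria2 shares were alike at 5000 UMIs (9.02% against 8.88% of basal-like cells). Cells of 1 library are not replicates, so no test is given. These comparisons were chosen after the values were seen.

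Gria2 (chromosome 3, 80588757 to 80710538, minus strand), the subunit that limits calcium entry, did not separate the groups in basal-like cells. It held 1136 and 1042 UMIs in Ctrl basal-like cells (33.4 and 33.0 CPM) and 1268 and 612 per TKO library (38.6 and 21.3 CPM). TKO replicate 1 lay above both Ctrl libraries and TKO replicate 2 below, and the log2 change was −0.15 (SE 0.246). Hair follicle-like cells held 78 and 56 UMIs per Ctrl library (5.46 and 3.83 CPM) and 128 and 108 per TKO library (13.5 and 9.39 CPM), with no overlap between the groups. The change of 1.34 there (SE 0.274) fell to 0.23 when cells needed at least 3000 detected genes, and 6 of 14 alternatives did not call it. Differentiating-like cells held at most 48 UMIs in a library. Gria1 (chromosome 11, 56902153 to 57221080, plus strand) had few UMIs in keratinocytes, 3 and 4 in Ctrl and 17 and 17 in TKO. In TKO replicate 2, 13 of the 17 lay in the cluster led by Merkel genes and 2 in the Psca-led cluster. In fibroblast-like cells Gria1 had 18 to 38 UMIs per library, at 10.2 to 25.2 CPM with overlapping groups.

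Among kainate genes, Grik4 (chromosome 9, 42429431 to 42856154, minus strand) was the one that stood lower in TKO in all 3 keratinocyte classes. Its level in Ctrl was ordered by class. Hair follicle-like cells had 2569 and 2570 UMIs (179.9 and 175.5 CPM), basal-like cells 1422 and 1203 (41.8 and 38.1 CPM) and differentiating-like cells 487 and 261 (25.3 and 24.6 CPM). The 2 Ctrl libraries were close to each other in each class, and no class overlapped the next. In TKO the same order held at lower levels, with 597 and 726 UMIs (62.8 and 63.1 CPM) in hair follicle-like, 235 and 266 (7.15 and 9.24 CPM) in basal-like and 23 and 27 (3.04 and 2.16 CPM) in differentiating-like cells.

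Thus both TKO libraries were below both Ctrl libraries in all 3 classes. The log2 change was −1.45 (SE 0.103) in hair follicle-like, −2.28 (SE 0.169) in basal-like and −3.37 (SE 0.226) in differentiating-like cells. Whether these 3 changes differ from each other was not tested. Over all keratinocytes Grik4 had 4528 and 4078 UMIs in the Ctrl pair and 879 and 1030 in the TKO pair, a change of −1.96 (SE 0.121). The TKO libraries differed less in Grik4 than in Gria3, as the plot by class shows.

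The share of cells with a Grik4 UMI moved with its level. At 5000 UMIs it was 14.5% and 14.3% of basal-like Ctrl cells and 4.39% and 4.76% of TKO cells. Hair follicle-like cells went from 44.8% and 46.6% to 23.2% and 20%. Differentiating-like cells had 12% and 10.5% in Ctrl and 0.99% and 1.10% in TKO. In fibroblast-like cells, where Grik4 had 3 to 5 UMIs per library, the shares were 1.92% and 0% in Ctrl and 0.546% and 0% in TKO. The exact intervals of the differentiating-like and fibroblast-like TKO shares overlapped at this depth. At 10000 UMIs the differentiating-like TKO shares were 2.79% and 2.62%, the fibroblast-like ones 1.26% and 1.96% and the immune-like ones 0.437% and 0.806%.

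Grik4 was lower in each of the 5 hair follicle-like clusters, by unlike amounts. A cluster led by Tll1, Abi3bp and Shh, a signal made by hair placodes, had the highest level in Ctrl, with 293.2 and 262.7 CPM, and 124.0 and 123.4 CPM in TKO. A cluster led by Lgr5, Nlgn1 and Tafa1 came nearest to overlap, with 204.4 and 170.2 CPM in Ctrl and 144.4 and 96.6 CPM in TKO. The 2 clusters led by Dkk4 had 111.7 and 120.9 CPM against 28.2 and 31.9, and 92.9 and 80.8 CPM against 10.4 and 16.6. The last cluster, led by Zfpm2, Pthlh and Penk, had 173.8 and 198.3 CPM against 77.9 and 74.3. None of these 5 aligned clusters overlapped between the groups. Without alignment, 2 clusters led by the same genes did overlap, on few TKO cells. The cluster led by Zfpm2 had 171.8 and 172.5 CPM in Ctrl and 323.8 and 94.6 CPM in 5 and 12 TKO cells, and that led by Lgr5 had 207.4 and 176.3 CPM against 177.4 and 94.98 CPM in 11 and 29 TKO cells.

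Grik4 was compared between TKO cells with and without Gria3 transcripts. At 5000 UMIs, Grik4 had a UMI in 27 of 343 (7.87%, exact interval 5.25 to 11.2) TKO replicate 1 keratinocytes with a Gria3 UMI and in 87 of 1217 (7.15%, 5.77 to 8.74) without. In TKO replicate 2 it was 21 of 236 (8.90%, 5.59 to 13.3) against 114 of 1548 (7.36%, 6.11 to 8.78). The intervals overlapped widely in both libraries. Hair follicle-like cells gave 21.5% and 23.8% with Gria3 and 23.7% and 19.5% without. Since a cell without a Gria3 UMI may still transcribe the gene, the split is a rough one. In the Tagln-led cluster of almost only TKO cells, Grik4 was at 4.55 and 5.959 CPM, against 9.565 and 8.081 CPM in the other basal-like TKO cells, all of them below the Ctrl libraries.

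**Figure D3:**
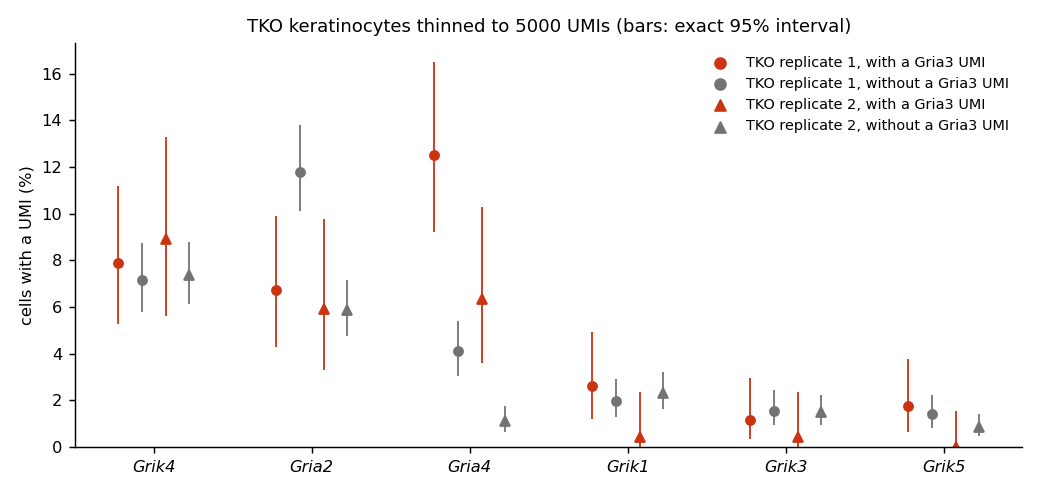
Percent of TKO keratinocytes with a UMI of each gene, in cells with (red) and without (grey) a Gria3 UMI, thinned to 5000 UMIs; bars are exact 95% intervals. Grik4 overlaps between the cell groups in both TKO libraries, and Gria4 does not.

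Grik1 (chromosome 16, 87692788 to 88087153, minus strand) stood higher in TKO hair follicle-like cells. It held 84 and 44 UMIs per Ctrl library (5.88 and 3 CPM) and 302 and 364 per TKO library (31.8 and 31.6 CPM), a log2 change of 2.88 (SE 0.281). The TKO libraries were alike and well above Ctrl. In TKO its level was highest, among the 5 hair follicle-like clusters, in that led by Tll1, Abi3bp and Shh, with 108.7 and 107.6 CPM against 9.66 and 3.105 CPM in Ctrl. A Dkk4-led cluster followed in TKO, led by Fgf20 and Nr3c2 as well, with 33.6 and 19.6 CPM against 4.43 and 4.87 CPM in Ctrl. The other Dkk4-led cluster overlapped between the groups, with 5.36 and 16.1 CPM in TKO against 15.8 and 7.345 CPM in Ctrl, and had the highest Ctrl level of the 5. In the cluster led by Zfpm2 and Pthlh, Grik1 was at 0 CPM in both Ctrl libraries and 1.66 and 0 CPM in TKO. Basal-like cells had 0.617 and 1.01 CPM in Ctrl and 2.40 and 1.08 CPM in TKO.

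**Figure D4:**
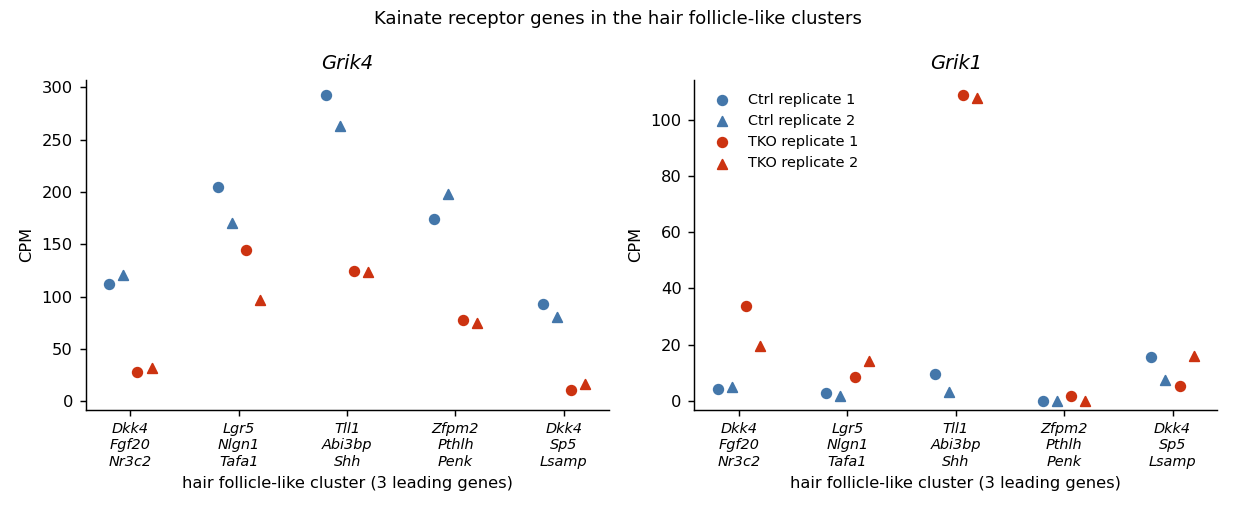
CPM of Grik4 and Grik1 in the 5 hair follicle-like clusters, named by 3 leading genes, with 1 point per library. In the Shh-containing cluster Grik4 lies at 262.7 CPM or more in Ctrl and 124.0 or less in TKO, and Grik1 at 9.66 or less in Ctrl and 107.6 or more in TKO.

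Grik2, Grik3 and Grik5 showed no separation of the groups over all keratinocytes. Grik2 (chromosome 10, 48970929 to 49664880, minus strand) had 66 and 25 UMIs in the Ctrl pair and 24 and 13 in the TKO pair, and 41 of the 66 in Ctrl replicate 1 lay in the cluster led by Merkel genes. In fibroblast-like cells Grik2 was lower in both TKO libraries. It had 31 and 51 UMIs there in Ctrl (18.92 and 34.75 CPM) and 15 and 12 in TKO (4.016 and 5.689 CPM). Grik3 (chromosome 4, 125384202 to 125607966, plus strand) had 1.94 and 3.96 CPM in Ctrl and 3.42 and 2.05 CPM in TKO, with overlapping groups. It was higher in immune-like cells, at 22.2 and 42.0 CPM in Ctrl and 28.4 and 26.2 CPM in TKO. Grik5 (chromosome 7, 24709269 to 24772708, minus strand) had 2.29 and 3.11 CPM against 2.90 and 2.33, again overlapping.

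Counted by the fit across all genes, 2 of the 9 members were higher and 1 lower in TKO keratinocytes, where 4.2% of all 19961 genes tested were called higher and 2.55% lower (quasi-likelihood test of edgeR, p under 0.05 after Benjamini-Hochberg adjustment). In basal-like cells 7 members were tested, 2 of them higher and 1 lower, where 7.49% and 4.24% of all genes were. Of 5 tested in differentiating-like cells, 1 was higher and 1 lower, against 0.817% and 0.272%. Hair follicle-like cells had 3 higher and 1 lower of 8 tested, against 6.9% and 5.47%. Nothing is read from these counts, since the set was chosen on this contrast. The genes higher were Gria3 and Grik1 in all keratinocytes, Gria3 and Gria4 in basal-like cells, Gria3 in differentiating-like cells and Gria2, Gria3 and Grik1 in hair follicle-like cells, and the gene lower was Grik4 throughout. The median log2 change was 0.09 over the 9 members in keratinocytes and −0.02 over all genes. Without Ctrl replicate 1, neither Gria3 (5.61) nor Grik4 (−1.98) was called over all keratinocytes.

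**Figure D5:**
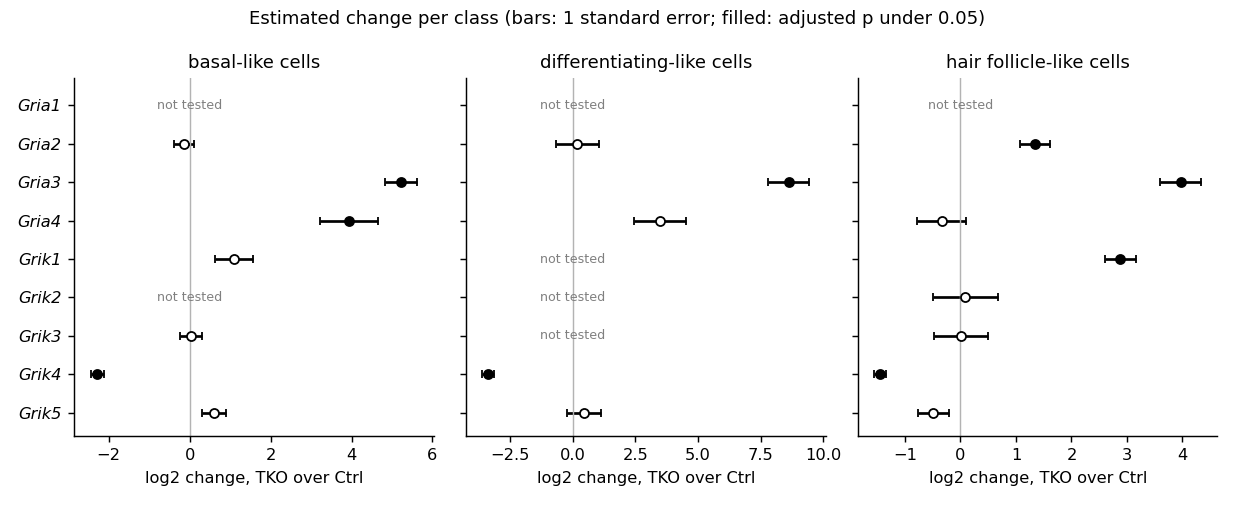
Log2 change of each member, TKO over Ctrl, in the 3 classes, with bars of 1 standard error and filled points for an adjusted p under 0.05. Grik4 lies between −1.45 and −3.37 and Gria3 between 3.97 and 8.62, the latter fitted on 0 and 2 Ctrl UMIs in differentiating-like cells.

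The other genes of glutamate signalling were examined beside the members, from a list of 63 (NMDA and delta subunits, auxiliary subunits, scaffolds, RNA editing enzymes, metabotropic receptors, transporters and enzymes of glutamate supply). In keratinocytes 41 were tested, of which 2 were called higher and 3 lower by edgeR, where 4.2% and 2.55% of all genes were, and DESeq2 called 9, where it called 13.2% of all genes. Basal-like cells had 5 higher and 3 lower of 33 (7.49% and 4.24% of all genes) and 8 by DESeq2 (15.1% of all genes). Hair follicle-like cells had 6 and 6 of 32 (6.9% and 5.47% of all genes) and 13 by DESeq2 (11.3% of all genes). Differentiating-like cells had 0 of 26 by edgeR (0.817% and 0.272% of all genes), where 6 had an unadjusted p under 0.05 (15.6% of all genes), and 3 by DESeq2 (4.18% of all genes).

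Auxiliary subunits moved both ways. Neto2, a partner of kainate receptors, rose from 8.37 and 6.39 CPM in Ctrl to 17.2 and 19.6 CPM in TKO keratinocytes (log2 change 1.30, SE 0.199, edgeR adjusted p 0.0256). Its relative Neto1 held 4 and 11 UMIs in Ctrl hair follicle-like cells and 79 and 39 in TKO (3.50, SE 0.589, edgeR adjusted p 0.0117). Gsg1l, an auxiliary subunit of AMPA receptors, fell in keratinocytes from 5.10 and 6.27 to 0.860 and 0.535 CPM (−3.04, SE 0.299, edgeR adjusted p 0.00854). Cacng4, which escorts AMPA receptors, changed by −1.61 (SE 0.222, edgeR adjusted p 0.0109) among basal-like cells and by 1.43 (SE 0.273, edgeR adjusted p 0.018) among hair follicle-like ones. Whether these opposite effects differ was not tested.

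Of the NMDA and delta subunits, 1 passed in any fit. Grin1, the obligatory NMDA subunit, fell in hair follicle-like cells from 68 and 70 UMIs to 18 and 17 (−1.46, SE 0.296, edgeR adjusted p 0.0221). Metabotropic receptors were called only lower. This held for 1 of 3 tested in keratinocytes (2.55% of all genes) and 1 of 3 in basal-like cells (4.24%). In hair follicle-like cells it was 2 of 2 (5.47% of all genes), and in differentiating-like cells 0 of 2 (0.272%). Grm4 had 508 and 549 UMIs in Ctrl keratinocytes and 77 and 57 in TKO (−2.77, SE 0.258, edgeR adjusted p 0.00712). Grm8 changed by −1.65 (SE 0.276, edgeR adjusted p 0.0116) among hair follicle-like cells. Among editing enzymes, Adarb2, which binds RNA without known editing activity, held 409 and 309 UMIs in Ctrl hair follicle-like cells and 4 and 8 in TKO (−5.37, SE 0.327, edgeR adjusted p 0.000446). Adarb2 is a leading gene of the cluster led by Zfpm2 and Pthlh, of whose 301 cells 16.61% were from TKO.

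Transporters and enzymes of glutamate supply were called only in the upward direction. This held for 1 of 9 tested in keratinocytes (4.2% of all genes) and 3 of 7 in basal-like cells (7.49%). In hair follicle-like cells it was 2 of 7 (6.9% of all genes), and in differentiating-like cells 0 of 7 (0.817%). Slc1a4, a neutral amino acid transporter, rose in keratinocytes from 23.4 and 23.9 to 51.6 and 43.4 CPM (0.99, SE 0.11, edgeR adjusted p 0.0123). Slc7a11, which exports glutamate in exchange for cystine, rose in basal-like cells from 33 and 12 UMIs to 86 and 151 (2.53, SE 0.538, edgeR adjusted p 0.034), and Slc1a5, a glutamine transporter, by 1.10 (SE 0.256, edgeR adjusted p 0.0435). Of the scaffolds, Dlg2 changed by −1.55 (SE 0.265, edgeR adjusted p 0.0196) among basal-like and by −2.40 (SE 0.451, edgeR adjusted p 0.0173) among hair follicle-like cells. Nsf (0.45, SE 0.101, edgeR adjusted p 0.0386) was higher in basal-like cells, and Grip1 (0.53, SE 0.121, edgeR adjusted p 0.0312) in hair follicle-like cells.

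The chromosomal neighbours of Gria3 and Grik4 were compared to see whether the changes reached beyond each gene. Thoc2, 116.4 kb from Gria3, held 13902 and 11926 UMIs in Ctrl keratinocytes and 10215 and 10917 in TKO (log2 change −0.07, SE 0.0908, edgeR adjusted p 0.684). Xiap, the next tested gene, changed by −0.05 (SE 0.112, edgeR adjusted p 0.82). On the other side the nearest tested protein-coding genes were C1galt1c1 and Mcts1, 2765 and 2787 kb away, at −0.09 each (edgeR adjusted p 0.765 and 0.653). None of the 4 was called.

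Around Grik4, Tbcel lay 10.33 kb away and had 1576 and 1339 UMIs in the Ctrl pair and 909 and 1148 in the TKO pair (−0.28, SE 0.151, edgeR adjusted p 0.317). Arhgef12, 18.98 kb away on the other side, changed by −0.31 (SE 0.11, edgeR adjusted p 0.16), Sc5d by −0.26 (SE 0.108, edgeR adjusted p 0.217) and Tlcd5 by 0.17 (SE 0.228, edgeR adjusted p 0.698). No neighbour was called, and each of the changes was smaller than that of Grik4 (−1.96). Within Grik4 lies a noncoding gene on the opposite strand, ENSMUSG00000120815, which had 37 and 52 UMIs in the Ctrl pair and 1 and 7 in the TKO pair (−3.24, SE 0.722, edgeR adjusted p 0.0597). It was called lower among hair follicle-like cells (−2.78, edgeR adjusted p 0.034). Whether counting used strand is not given in the sources used here, so its reads cannot be told apart from those of Grik4. The other overlapping genes, Gm54484 in Gria3 and Gm55337 and Gm55338 in Grik4, had 0 UMIs.

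Genes with the pattern most like Gria3 and Grik4 were taken by the Pearson correlation of log2(CPM + 1) over 12 sums (4 libraries in 3 classes) among 16745 genes with at least 100 UMIs. For Gria3 they were Igsf9b (r = 0.988), Gm41804 (0.987), Eda2r (0.985), 4930447C04Rik (0.981) and Olfr814 (0.980). Gm41804 held 32 and 21 UMIs in Ctrl basal-like cells and 4482 and 3533 in TKO. For Grik4 they were Zscan29 (0.967), Tmem59 (0.963), Lgi2 (0.959), Zdhhc1 (0.959) and Zup1 (0.958). Lgi2 held 115 and 70 UMIs in Ctrl basal-like cells and 33 and 13 in TKO. Tmem59 differed less, with 7800 and 8054 against 5680 and 5434, since the correlation does not measure the size of a change. The 12 sums share libraries and depth, and 2 of the 4 libraries are TKO, so these values describe shared levels and carry no p.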

How the data were processed

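Single-cell RNA-seq of 4 libraries was used (10x Genomics 3' chemistry). The authors deposited raw UMI counts per gene and cell, written by Cell Ranger 7.1.0 per the file headers, on GRCm39 per the submitters' processing notes. The methods name a later release, and the annotation, the strand setting and whether intronic reads were counted are not given in the sources used here. Cells were kept if they had 2000 or more genes detected and less than 10% of UMIs from mitochondrial genes, and the highest Scrublet scores (scanpy 1.11.5) were left out at 0.8% per 1000 barcodes, since the automatic threshold marked 2 and 2 Ctrl cells and 32 and 32 TKO cells. This left 3052, 3234, 2095 and 2383 cells. Components were aligned with an own implementation of Harmony and clustered by Leiden at resolution 1, and keratinocytes were clustered again without the receptor list or the 1349 genes called between the genotypes. Clusters were named from fixed markers, and the naming details and the doublet rate were settled after the cells were seen. UMIs were summed per class and library and fitted with edgeR 4.0.16 (quasi-likelihood, TMM, default filter, genotype as the only term, Benjamini-Hochberg over all genes, threshold 0.05), as cells are not replicates. DESeq2 1.42.0 and other settings served as alternatives. In simulated counts with 200 changed genes, the keratinocyte fit (19553 genes) recovered 72 of 100 changes of 1 on the log2 scale and 100 of 100 of 2, with 11 false calls. The differentiating-like fit recovered 61 of 100 changes of 1. Only genes above 5 CPM were changed, and the simulated spread followed a trend over all genes. The simulation therefore does not cover members with low counts. Intervals are exact (Clopper-Pearson or Poisson, 95%) and cover counting error only, as does the limit of 3 counts for a share of 0. Positions are from GENCODE vM39. The members and lists were chosen with earlier results of these data known. Named genes were the 9 members, list genes called in any fit (at most 12 per fit), the 5 genes most like Gria3 and Grik4, their overlapping genes and 2 tested neighbours on each side, and the targeted and sex-linked genes. The p-values test the TKO against Ctrl change on 2 libraries per group, with an error term that also draws on the spread of other genes.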

Additional observations from a re-analysis of the deposited data

Results flagged for a closer look

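Gria3 was high in TKO keratinocytes outside the 3 classes compared, most of which lay in the Tagln-led cluster without alignment. In the cluster led by Merkel genes its TKO mean was 343 CPM, above the 0 and 4.58 CPM of the Ctrl cells there, and 4 and 6 of the 8 Merkel markers were at 0 in the TKO cells of the 2 libraries.

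Grik5 was higher in both TKO libraries than in both Ctrl libraries in basal-like cells, where its TKO mean was 1.96 CPM, and lower in both in hair follicle-like cells. This difference was not tested, and Grik5 was called in neither class.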

How the results depend on the processing

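With 2 embryos per genotype, the number of genes called depended on the settings, while the directions of Gria3 and Grik4 did not under the 14 alternatives run per fit. In keratinocytes 1349 genes were called, against 2643 with DESeq2, 638 with no expression filter, 874 at 5000 UMIs per cell, 843 with doublets kept, and 7 to 2256 when each library was left out. In basal-like cells 2083 genes were called, against 4075 with no filter, 1256 at 5000 UMIs and 577 to 2822 leaving out a library. In differentiating-like cells 152 were called, against 583 with DESeq2, 1680 with no filter, 340 with doublets kept, 274 without alignment of components and 76 to 576 leaving out a library. In hair follicle-like cells 1954 were called, against 3219 with no filter, 992 at 5000 UMIs, 1298 at Leiden resolution 0.5 and 819 to 2789 leaving out a library. The cause of these shifts was not tested. The replicate numbers are shared between the groups, but the labels do not tie them to a litter, and the deviations of same-numbered libraries correlated at −0.410 over 9044 genes. With the replicate block the counts were 922, 1350, 18 and 1961 in the order above, and in differentiating-like cells Gria3 and Grik4 were then not called. The crossed pairing, added after the data were seen, called 3674, 4137, 840 and 2505 genes. Of 399 values of the members under alternatives, 343 kept direction and call, 14 lost the call, 11 gained it, 31 uncalled values changed sign and 0 called values reversed. Of 348 values of the other named genes 41 lost the call. The TKO minus Ctrl difference in the share of keratinocytes with a Gria3 UMI was 17.1 percentage points at 5000 UMIs and 28.6 unthinned. For Grik4 it was −13.9, with −19.8 at 10000 UMIs and −23.4 unthinned. The share of TKO keratinocytes with Grik4 differed by 1.13 points between cells with and without Gria3 at 5000 UMIs and by −0.689 at 10000, so it has no stable sign.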
